A study of Mus musculus with 12 samples.

Results

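The genes of the platelet-derived growth factor (PDGF) system were followed across mouse sarcomas and bone marrow stromal cells labelled p53 knockout and stromal cells labelled p53 wild type. The members were taken by name and number 6 of the 24421 genes in the table: the receptors Pdgfra and Pdgfrb and the ligands Pdgfa, Pdgfb, Pdgfc and Pdgfd. Bulk RNA sequencing gave 12 mouse libraries: 6 of p53 knockout (KO) tumors, sarcomas arising in bone or bone marrow, 3 of KO mesenchymal stem cells (MSCs) and 3 of wild-type (WT) MSCs. MSCs were sorted from bone marrow as cells without CD45, Ter119 and CD31 and with the leptin receptor (LepR) and CD140a. CD140a is the protein of Pdgfra, so every MSC library was gated on 1 of the members, while no sort is described for the tumors. The sources used here name no age, sex, strain, allele or Cre line, and do not say which libraries are separate animals.

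PDGFs are secreted dimers that bind receptor tyrosine kinases on mesenchymal cells and drive their growth and migration. PDGFRA binds the A, B and C chains, and PDGFRB binds the B and D chains. The A and B chains are cut to their active form inside the cell, whereas the C and D chains leave it with a blocking domain that proteases remove outside. In bone marrow PDGFRA and PDGFRB mark perivascular stromal cells, endothelial cells are a known source of the B chain for the pericytes around them, and platelets carry PDGF in their granules.

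The values are log2 expression per gene, stabilized and adjusted for batch by the authors, on which 1 unit is a doubling for well expressed genes and less than that near the floor, the value of a gene without reads. On the mouse build mm10, Pdgfra lies on chromosome 5 (75152292 to 75198215, plus strand) and Pdgfa on chromosome 5 (138976014 to 138997370, minus strand). Pdgfb lies on chromosome 15 (79995874 to 80014977, minus strand), Pdgfc on chromosome 3 (81036416 to 81214040, plus strand) and Pdgfd on chromosome 9 (6168584 to 6378850, plus strand).

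The promoters of 4 members matched a RefSeq entry of GRCm38.p6, the release that mm10 is made from, and are shown so that members that rose, fell or did not pass in tumors can be set side by side. Each covers 250 bases before to 50 bases after the start site, 5′ to 3′ in the direction of the gene, with motif matches in capitals.
Pdgfc (ligand, chr3:81036166-81036465, plus strand): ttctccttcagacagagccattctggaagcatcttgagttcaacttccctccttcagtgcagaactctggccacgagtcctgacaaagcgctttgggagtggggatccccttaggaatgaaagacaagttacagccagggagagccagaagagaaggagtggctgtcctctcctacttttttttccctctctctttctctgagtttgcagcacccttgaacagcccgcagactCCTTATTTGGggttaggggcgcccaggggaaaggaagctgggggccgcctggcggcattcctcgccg
Pdgfa (ligand, upstream start, chr5:138994895-138995194, minus strand): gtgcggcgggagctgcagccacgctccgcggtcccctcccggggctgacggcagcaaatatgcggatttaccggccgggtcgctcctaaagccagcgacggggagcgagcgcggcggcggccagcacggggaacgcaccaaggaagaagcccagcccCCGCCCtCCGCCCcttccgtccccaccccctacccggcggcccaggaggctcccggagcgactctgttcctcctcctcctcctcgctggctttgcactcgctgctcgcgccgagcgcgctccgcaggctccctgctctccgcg
Pdgfd (ligand, chr9:6168236-6168535, plus strand): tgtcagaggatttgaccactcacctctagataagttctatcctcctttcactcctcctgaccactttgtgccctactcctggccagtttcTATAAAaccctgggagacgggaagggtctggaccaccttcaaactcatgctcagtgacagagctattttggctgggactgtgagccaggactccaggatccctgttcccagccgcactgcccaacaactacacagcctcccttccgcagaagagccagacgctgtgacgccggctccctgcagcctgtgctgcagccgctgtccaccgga
Pdgfra (receptor, chr5:75152001-75152300, plus strand): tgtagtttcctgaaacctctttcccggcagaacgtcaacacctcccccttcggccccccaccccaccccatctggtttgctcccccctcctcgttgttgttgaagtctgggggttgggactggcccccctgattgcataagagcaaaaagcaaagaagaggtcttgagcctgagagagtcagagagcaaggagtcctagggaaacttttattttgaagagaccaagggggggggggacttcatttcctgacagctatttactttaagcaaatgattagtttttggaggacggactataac
The capitals mark a CArG box, the element of serum response factor, in Pdgfc, the GC box GGGCGG read on the other strand in Pdgfa, and the TATA box TATAAA in Pdgfd. The CArG box of Pdgfc began at -17 from the start site, and 1.63% of the 32851 RefSeq promoters of this length held one. The GC boxes of Pdgfa began at -93 and -86 without overlap, and 35.7% of all promoters held at least 1. A second Pdgfa entry, at chr5:138994232-138994531, had 1 GC box at -60. The TATA box of Pdgfd began at -160, and 13.6% of promoters held one. Neither the AP-1 motif TGANTCA (7.81% of all promoters) nor a p53 half-site (8.36%) was found in any of the 5 entries of these members, and Pdgfra had no match of the 5 motifs. Both strands were searched, and the motifs were chosen with these letters in view, so the matches are descriptions only. GC content was 73.3% for the Pdgfa promoter shown, against a median of 52.7% over all promoters.

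Lepr, the gene of the positive sort marker LepR, was lowest in tumors. It had values of 4.10 to 8.93 in tumors, 11.63 to 14.12 in the libraries labelled KO MSC and 14.56 to 15.60 in WT MSCs. Pecam1, the gene of CD31, was at 6.59 to 9.60 in tumors, 5.46 in every library labelled KO MSC and 4.76 to 5.81 in WT MSCs. Ptprc, the gene of CD45, was at 7.11 to 10.67 in tumors, at 7.60, 5.69 and 5.69 in KO_MSC 1, 2 and 3 as labelled and at 5.69 to 6.42 in WT MSCs, so KO_MSC 1 overlapped the tumors. Trp53, the knocked-out gene, did not clearly separate the labels. Tumors had 6.79 to 9.16, KO_MSC 1, 2 and 3 as labelled had 10.49, 9.76 and 6.96, and WT MSCs had 9.96, 10.04 and 10.61. KO_MSC 1 thus lay within the WT range and KO_MSC 2 just below it. No allele is named, so RNA of the gene cannot settle these labels. Every direction below that involves the libraries labelled KO MSC rests on those labels. Floor values that libraries share exactly divide them into 2 batches, the first with tumors 1 to 3, KO_MSC 1 and WT_MSC 1. The genes at the floor numbered 2632 in KO_MSC 1 and 3730 in WT_MSC 1, against 9251 to 12336 in the other libraries, and depth is unknown.

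Tumors had more Pdgfc and Pdgfb and less Pdgfrb, Pdgfra and Pdgfd than WT MSCs. Against the libraries labelled KO MSC, tumors had more Pdgfc and Pdgfb, and no other member passed. In the libraries labelled KO MSC both receptors and Pdgfd were lower than in every WT MSC library, but no member passed there. The tests were limma fits with adjustment over all 18948 genes tested and a threshold of 0.05, and changes are given as log2 differences ± SE with 6 tumors and 3 libraries of each MSC group. Tumors against WT MSCs gave 5 passing members of 6 (2 higher, 3 lower), where 21.3% of all genes passed (10.4% higher, 10.9% lower). The same 5 were the members whose groups did not overlap, beside 12.9% of all genes higher and 12.3% lower. Tumors against the libraries labelled KO MSC gave 2 of 6, both higher, where 4.98% of all genes passed (2.7% higher, 2.28% lower), and these 2 were the members whose groups did not overlap, beside 8.0% of genes in that direction. The libraries labelled KO MSC against WT MSCs gave 0 of 6, where 0.0% of all genes passed. At an unadjusted p under 0.05, limma counted 1637 genes (8.64%) in that last comparison, among them the 3 members Pdgfra, Pdgfrb and Pdgfd. With library weights, which gave a convergence warning there, 2447 genes and 2 members passed. The comparisons share libraries, so the tumor comparisons are not independent of each other. In bulk RNA fewer cells of a type and less RNA per cell cannot be told apart. The MSCs were gated on LepR and CD140a, and no sort is described for the tumors. For every member, then, the gate and the tissue cannot be told apart in the tumor comparisons.

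**Figure D1:**
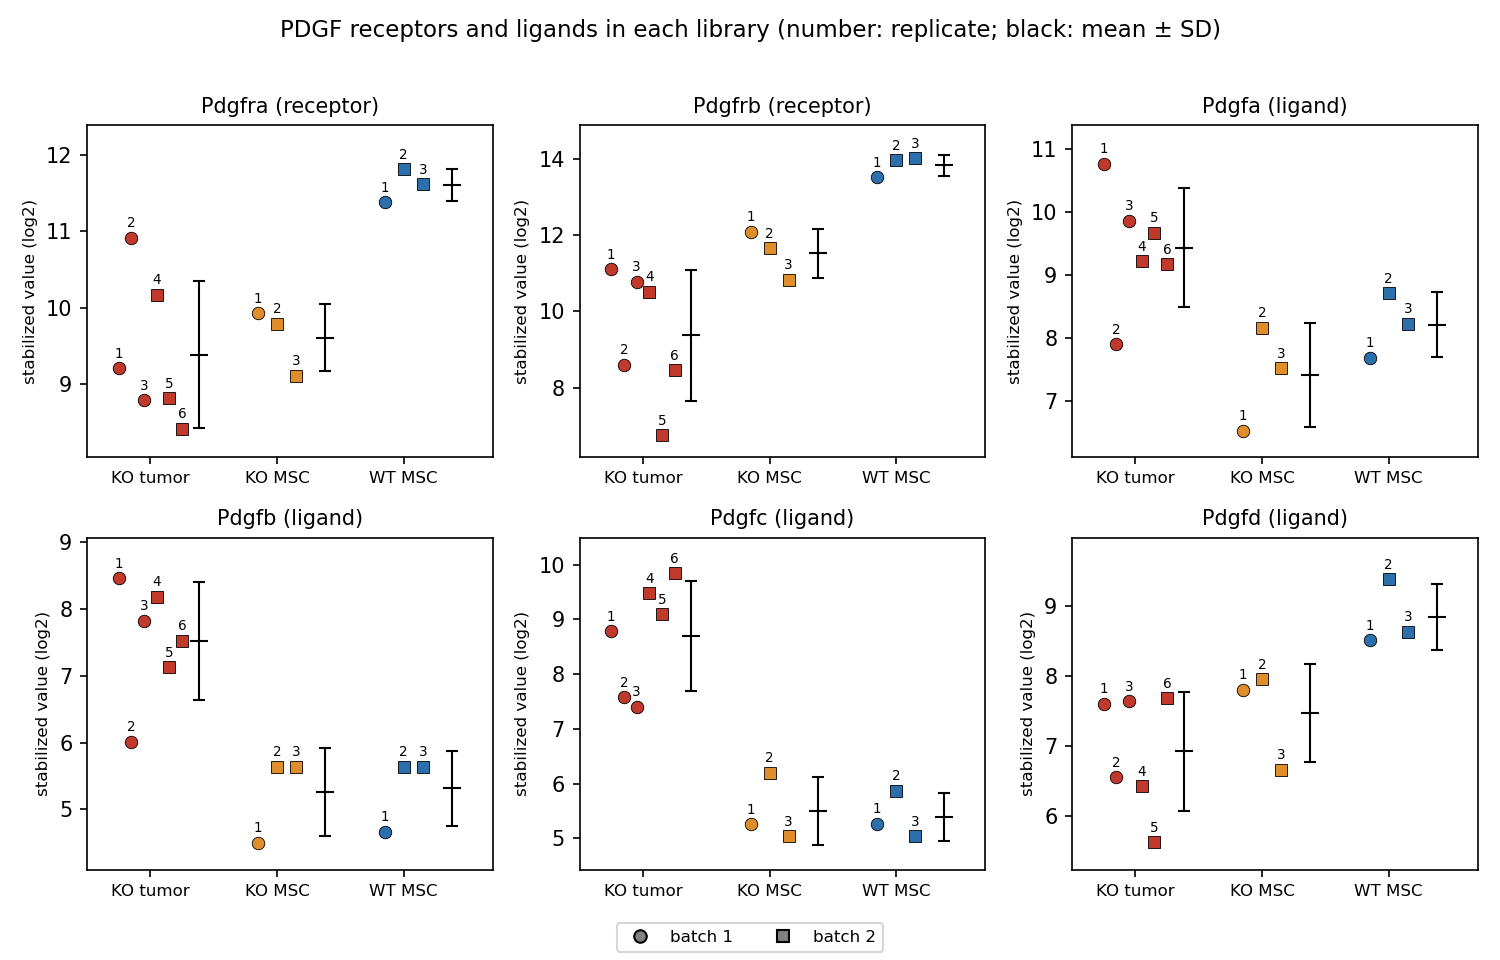
Stabilized log2 expression of the 6 members, 1 panel per gene, in tumors, libraries labelled KO MSC and WT MSCs from left to right, with a point per library and a bar at the group mean. Pdgfc in all 6 tumors lies between 7.41 and 9.84, above every MSC library, and Pdgfrb spreads over 6.75 to 11.11 in tumors, below the lowest WT MSC library at 13.52.

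Pdgfrb (chromosome 18, 61045150 to 61085061, plus strand), the receptor of the B and D chains, had the largest change of the 6 members, in tumors against WT MSCs. In tumors it ran from 6.75 through a median of 9.55 to 11.11. MSC values were 12.09, 11.66 and 10.83 in KO_MSC 1, 2 and 3 as labelled and 13.52, 13.97 and 14.02 in WT_MSC 1, 2 and 3. All 6 tumors lay below all WT MSCs, tumor 1 (11.11) lay above the library labelled KO_MSC 3, and the libraries labelled KO MSC lay between the tumors' median and the WT MSCs. Pdgfrb was 22.1-fold lower in tumors than in WT MSCs (-4.47 ± 0.86, adjusted p = 0.00532), a larger fall than in 99.7% of genes, and the call held in all 20 alternatives. In tumors against the libraries labelled KO MSC the change of -2.16 ± 0.87 did not pass (adjusted p = 0.160). Between the MSC groups, KO minus WT as labelled, it was -2.31 ± 0.50, with an unadjusted p of 0.00184 and an adjusted p of 0.551. It passed in 1 of 17 alternatives, library weights (limma adjusted p = 0.0126), and the weights gave a convergence warning there. Within batches the tumor change was -3.35 (first) and -5.42 (second) against WT MSCs and -1.93 and -2.67 against the libraries labelled KO MSC. The gate of the MSCs and the tissue cannot be told apart in these tumor changes.

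Pdgfra, the receptor of the A, B and C chains and the sort marker, had a narrower range. In tumors it ran from 8.42 through a median of 9.02 to 10.92. Among MSCs, KO_MSC 1, 2 and 3 as labelled had 9.93, 9.79 and 9.11 and WT_MSC 1, 2 and 3 had 11.38, 11.81 and 11.62. The tumors overlapped the libraries labelled KO MSC and lay below the WT MSCs, with tumor 2 the highest. Pdgfra was 4.65-fold lower in tumors than in WT MSCs (-2.22 ± 0.52, adjusted p = 0.0130), but the call was lost without WT_MSC 2 (adjusted p = 0.0584) or WT_MSC 3 (adjusted p = 0.0522). In tumors against the libraries labelled KO MSC it differed by -0.22 ± 0.55 (adjusted p = 0.828). Against WT MSCs, the libraries labelled KO MSC had 3.99-fold less Pdgfra (SE 0.38 on the log2 scale), with an unadjusted p of 0.000793 and an adjusted p of 0.551. That change passed in 1 of 17 alternatives, library weights (limma adjusted p = 0.0126), and the weights gave a convergence warning there. In the second batch alone the fall in tumors against WT MSCs did not pass (adjusted p = 0.0703). Within batches the tumor change was -1.74 and -2.58 against WT MSCs and -0.29 and -0.32 against the libraries labelled KO MSC, and the change of the libraries labelled KO MSC was -1.46 (1 library each) and -2.27. MSCs were gated on the protein of this gene and tumors were not, so the gate and the tissue cannot be told apart in the tumor comparisons.

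**Figure D2:**
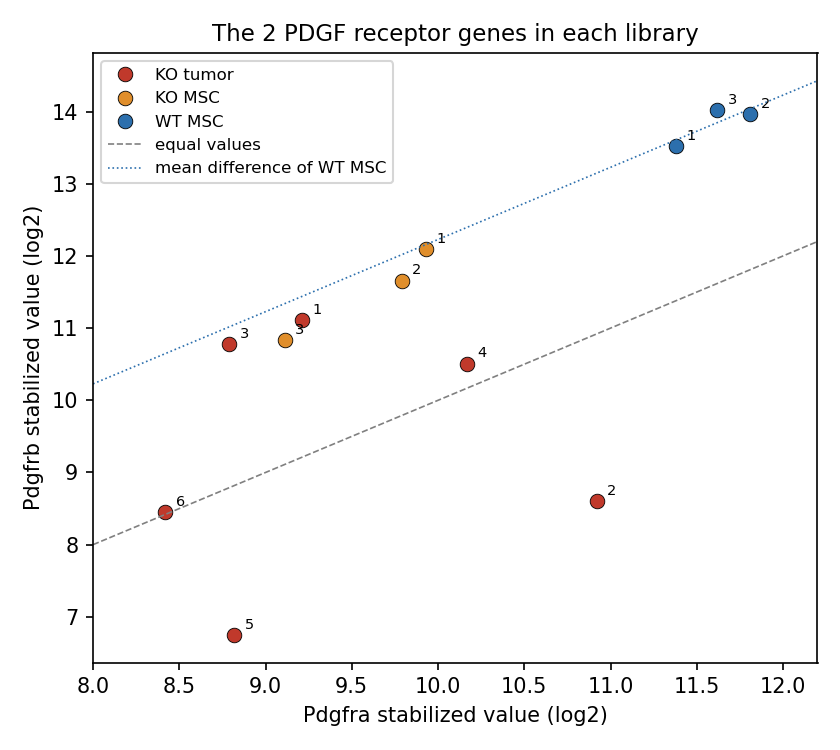
Pdgfrb (vertical) against Pdgfra (horizontal), stabilized log2 values with 1 point per library, numbered by replicate and coloured by group. The dotted line is the mean difference of WT MSCs and the dashed line is equal values. All 6 MSC libraries lie above the dashed line, and tumors 2 and 5 lie below it, with 2.32 and 2.07 more Pdgfra.

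The difference between the receptors varied more among tumors than among MSCs. Pdgfra minus Pdgfrb was -1.90, 2.32, -1.99, -0.35, 2.07 and -0.04 in tumors 1 to 6. MSCs had -2.16, -1.87 and -1.72 in KO_MSC 1, 2 and 3 as labelled and -2.13, -2.16 and -2.39 in WT_MSC 1, 2 and 3. Tumors 1 and 3 had values like the MSCs, tumors 4 and 6 had nearly equal receptor values, and tumors 2 and 5 had far more Pdgfra. Per transcript length, which lowers each difference by 0.33, Pdgfra was above Pdgfrb in tumors 2 and 5 and in no other library. The mean was 0.02 ± 1.86 in tumors, -1.92 ± 0.22 in the libraries labelled KO MSC and -2.23 ± 0.14 in WT MSCs (SD, n = 6, 3 and 3). Tumors minus WT MSCs was 2.25 ± 0.77 (SE), for which an exact two-sided permutation test gave 0.0238, the smallest p it can give, and 0.0714 after adjustment over the 3 comparisons, which did not pass. Tumors minus the libraries labelled KO MSC was 1.94 ± 0.77 (exact permutation p = 0.167, adjusted 0.25). KO minus WT MSCs, as labelled, gave 0.31 ± 0.15 (exact permutation p = 0.3, with 0.1 the smallest possible).

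Pdgfc, a ligand of PDGFRA, had the largest mean rise of the 6 members in tumors against both MSC groups, though not in the first batch, where the difference was larger for Pdgfb against both and for Pdgfa against KO_MSC 1. In tumors it ran from 7.41 through a median of 8.94 to 9.84. MSC values were 5.26, 6.20 and 5.04 in KO_MSC 1, 2 and 3 as labelled and 5.27, 5.87 and 5.04 in WT_MSC 1, 2 and 3. No tumor overlapped an MSC library, and the 5.04 of KO_MSC 3 and WT_MSC 3 is the floor of the second batch. Above the floor of their batch, 5.04 or an inferred 4.47 in the first, tumors stood 2.94 to 4.81 and MSC libraries 0 to 1.16. Pdgfc rose by 3.20 ± 0.60 in tumors against the libraries labelled KO MSC, 9.19-fold on this scale (adjusted p = 0.0145). That call was lost without KO_MSC 1 (3.08, adjusted p = 0.0997). It rose by 3.30 ± 0.56 against WT MSCs, 9.88-fold (adjusted p = 0.00289), and that call held in all 20 alternatives. Within batches the rise was 2.66 and 3.86 against the libraries labelled KO MSC and 2.65 and 4.02 against WT MSCs. The libraries labelled KO MSC differed from WT MSCs by 0.10 ± 0.37 (adjusted p = 0.997).

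**Figure D3:**
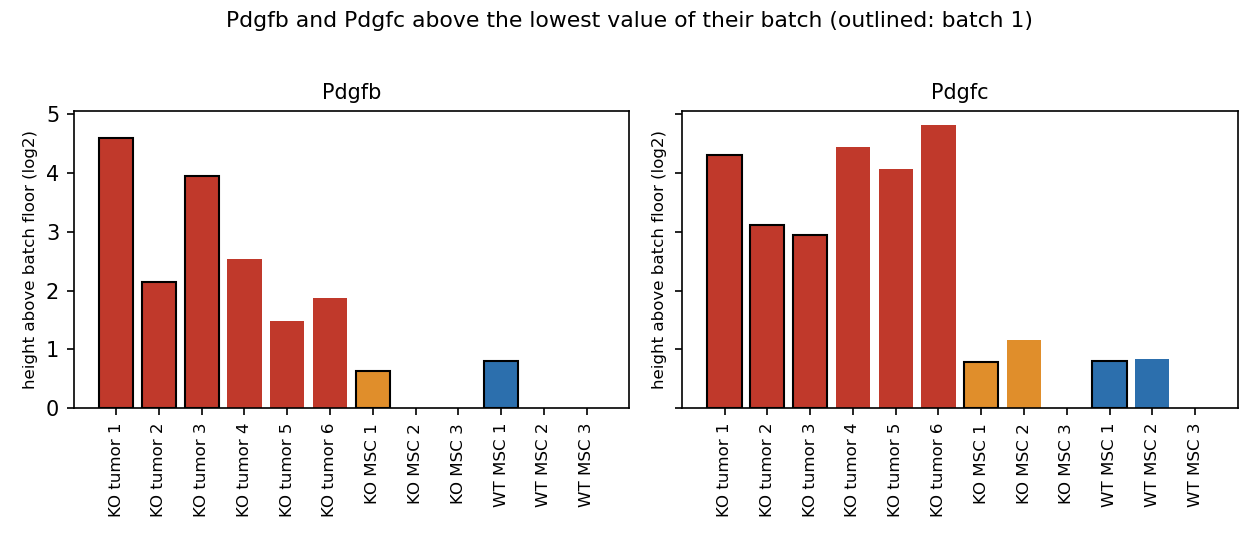
Height of Pdgfb and Pdgfc above the floor of their batch, in log2 units, with 1 bar per library (outlined for the first batch) and groups from left to right as tumors, libraries labelled KO MSC and WT MSCs. The first-batch floors are inferred. For Pdgfc tumors stand 2.94 to 4.81 above the floor and MSC libraries at most 1.16, and 4 of the 6 MSC libraries are at the Pdgfb floor.

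Pdgfb, the ligand of PDGFRA and PDGFRB, was at or near the floor in MSCs. In tumors it ran from 6.01 through a median of 7.67 to 8.46. Among MSCs, KO_MSC 1, 2 and 3 as labelled had 4.50, 5.64 and 5.64 and WT_MSC 1, 2 and 3 had 4.67, 5.64 and 5.64. The value 5.64 is the floor of the second batch, so 4 MSC libraries were at the floor. The first-batch floor of 3.87 was inferred, as no library there stood at it. By it the other 2 MSC libraries stood 0.63 and 0.80 above the floor. All tumors stood above it, by 1.49 in tumor 5 to 4.60 in tumor 1. Pdgfb rose by 2.21 ± 0.52 in tumors against WT MSCs (adjusted p = 0.0134), a call lost without WT_MSC 1 (adjusted p = 0.0835) and in the second batch alone (adjusted p = 0.0653). Against the libraries labelled KO MSC it rose by 2.26 ± 0.57 (adjusted p = 0.0444). This call was lost without the library labelled KO_MSC 1 (0.219) or KO_MSC 2 (0.0941) and without tumor 1 (0.0687), 3 (0.0829), 4 (0.0688), 5 (0.0659) or 6 (0.0757; adjusted p, limma), with no filter (0.0639), with quantile scaling (0.0741), with a batch term (0.0578) and in the second batch alone (0.231). Within batches the change was 2.93 and 1.97 against the libraries labelled KO MSC and 2.76 and 1.97 against WT MSCs. Between the MSC groups the value was -0.06 ± 0.39 (adjusted p = 1.0).

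Pdgfa, the other ligand of PDGFRA, was at 6.53 or above in every library. In tumors it ran from 7.91 through a median of 9.45 to 10.77. MSC values were 6.53, 8.17 and 7.53 in KO_MSC 1, 2 and 3 as labelled and 7.69, 8.72 and 8.23 in WT_MSC 1, 2 and 3. Tumor 2 was the low one, within the range of both MSC groups, and the other 5 tumors lay above every MSC library. The change was 2.03 ± 0.58 against the libraries labelled KO MSC (adjusted p = 0.0679) and 1.22 ± 0.53 against WT MSCs (adjusted p = 0.123), and neither passed. Without tumor 2 both passed, with 2.33 (adjusted p = 0.0338) and 1.53 (adjusted p = 0.0329). Within batches the change was 2.99 and 1.51 against the libraries labelled KO MSC and 1.83 and 0.88 against WT MSCs. KO minus WT MSCs, as labelled, gave -0.80 ± 0.54 (adjusted p = 0.702).

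Pdgfd, a ligand of PDGFRB, went the other way from Pdgfc in tumors against WT MSCs. In tumors it ran from 5.62 through a median of 7.08 to 7.68. Among MSCs, KO_MSC 1, 2 and 3 as labelled had 7.80, 7.95 and 6.66 and WT_MSC 1, 2 and 3 had 8.51, 9.38 and 8.63. All tumors and all libraries labelled KO MSC lay below all WT MSCs, and they overlapped each other. Pdgfd fell by 1.92 ± 0.50 in tumors against WT MSCs (adjusted p = 0.0213), and the call was lost without WT_MSC 1 (adjusted p = 0.0619), WT_MSC 2 (0.102) or WT_MSC 3 (0.0625) and in the second batch alone (0.0954). Within batches this change was -1.24 and -2.43. Against the libraries labelled KO MSC the change was -0.55 ± 0.57 (adjusted p = 0.569). Between the MSC groups, KO minus WT as labelled, it was -1.37 ± 0.49, with an unadjusted p of 0.0242 and an adjusted p of 0.551. Groups not overlapping in that comparison were found for 3 members, all lower, and for 8.93% of all genes in that direction.

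**Figure D4:**
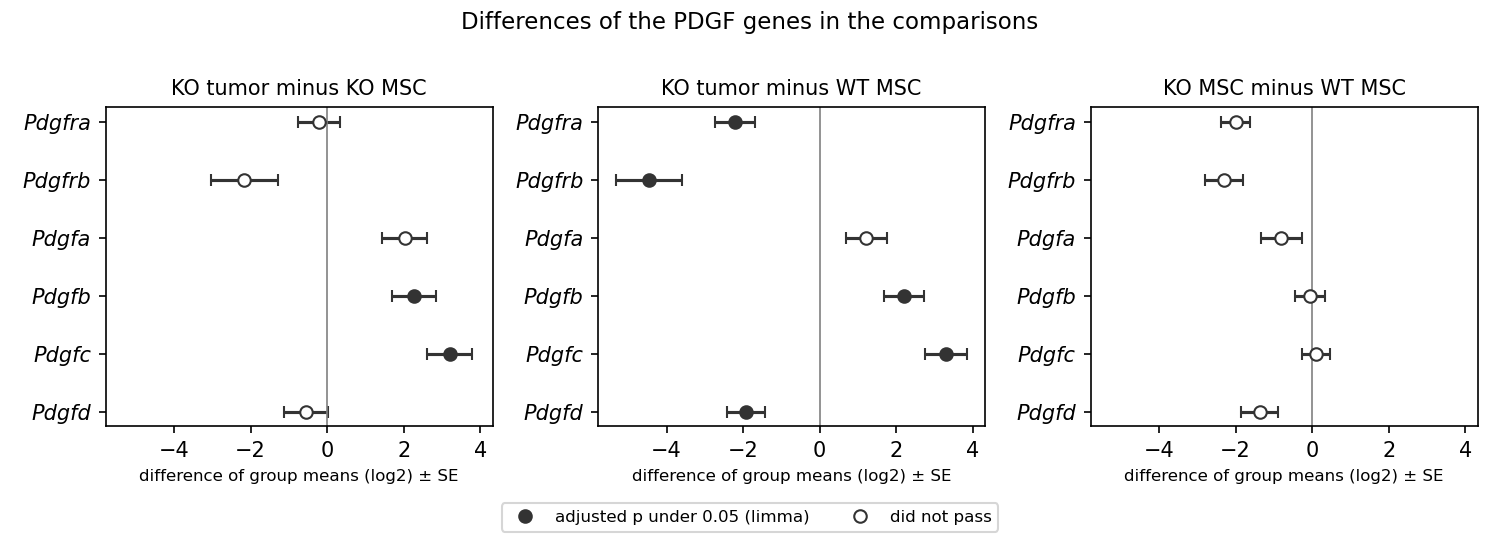
Log2 change of each member ± SE in 3 comparisons, tumor against KO MSC, tumor against WT MSC and KO MSC against WT MSC, with filled points where the limma adjusted p was under 0.05. Pdgfc and Pdgfb lie above 0 against both MSC groups, with values from 2.21 to 3.30, and Pdgfrb against WT MSC is the lowest at -4.47.

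The rank of the members by level differed between tumors and MSCs. Per kilobase of the longest coding transcript, Pdgfa had the highest mean level in tumors (8.39 ± 0.94 log2 units, SD over 6 tumors) and was the highest member in 5 of 6 tumors, while tumor 2 had Pdgfra first. Next in tumors came Pdgfrb (6.93 ± 1.71), Pdgfc (6.88, between 5.59 and 8.03), Pdgfra (6.61 ± 0.96), Pdgfb (5.96 ± 0.88) and Pdgfd (5.27 ± 0.86). Pdgfa was above Pdgfrb in all 6 tumors. Pdgfrb was above Pdgfc in 4 of 6, Pdgfc above Pdgfra in 4 of 6, Pdgfra above Pdgfb in 3 of 6 and Pdgfb above Pdgfd in 4 of 6. These latter neighbours do not differ beyond their spread. In the libraries labelled KO MSC the order was Pdgfrb (9.09), Pdgfra (6.84), Pdgfa (6.37), Pdgfd (5.82), Pdgfb (3.70) and Pdgfc (3.68). There Pdgfra was above Pdgfa in 1 of 3 libraries, Pdgfa above Pdgfd in 2 of 3 and Pdgfb above Pdgfc in 1 of 3, with Pdgfb at the floor in 2 of them and Pdgfc in 1, so these neighbours have no firm order. In WT MSCs it was Pdgfrb (11.39), Pdgfra (8.83), Pdgfd (7.19), Pdgfa (7.17), Pdgfb (3.76) and Pdgfc (3.58), and Pdgfd and Pdgfa were apart by less than their SD. Among WT MSCs Pdgfb was above Pdgfc in 2 of 3 libraries, with Pdgfb at the floor in 2 and Pdgfc in 1. This pair has no firm order either. Pdgfrb was first in all 6 MSC libraries.

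Tumors differed from each other most in Pdgfrb. Its SD over tumors was 1.71, larger than that of 96.3% of the genes with a mean of at least 7, and its range was 20.6-fold. Pdgfc had the next largest SD, larger than 81.4% of genes, with a range of 5.39-fold. Its values were 8.78, 7.58 and 7.41 in tumors 1 to 3, all of the first batch. Those of tumors 4 to 6, all of the second batch, were 9.48, 9.1 and 9.84. For this gene batch and differences between tumors cannot be told apart. Pdgfra had an SD of 0.96 and Pdgfa of 0.94, larger than 79.2% and 78.2% of genes. Tumor 2 combined the highest Pdgfra (10.92) with the lowest Pdgfa (7.91) and Pdgfb (6.01). Tumor 1 combined the highest Pdgfrb (11.11), Pdgfa (10.77) and Pdgfb (8.46). Tumor 5 had the lowest Pdgfrb (6.75) and Pdgfd (5.62), and tumor 6 the lowest Pdgfra (8.42) and the highest Pdgfc (9.84) and Pdgfd (7.68).

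Of 65 genes in 5 lists of the pathway, 9 passed in tumors against the libraries labelled KO MSC, where 4.98% of all genes passed, and 27 against WT MSCs, where 21.3% of all genes passed. Among the 12 genes that process or bind the ligands, Plat, the tissue plasminogen activator that cuts PDGF-C to its active form, rose by 3.94 ± 0.9995 against the libraries labelled KO MSC (adjusted p = 0.0457). It was at 7.61, 10.82, 7.95, 12.53, 10.07 and 7.85 in tumors 1 to 6, at 5.08, 6.34 and 5.20 in the libraries labelled KO MSC and at 5.43, 6.13 and 6.74 in WT MSCs. No tumor overlapped an MSC library for Plat, but the call was lost without any 1 of the 3 libraries labelled KO MSC (adjusted p = 0.0868 to 0.208) and without tumor 2 (0.0737) or 5 (0.0874). Against WT MSCs, Plat (3.37 ± 1.01) and Pdgfrl (2.10 ± 0.60), a receptor-like gene whose groups overlapped, rose. Both calls were lost without any 1 of the WT MSC libraries (adjusted p = 0.0799 to 0.152 for Plat and 0.0877 to 0.111 for Pdgfrl), that of Plat also without tumor 2 (0.0631) or 5 (0.0645) and that of Pdgfrl without tumor 3 (0.0611), 5 (0.0511) or 6 (0.0592). In the same comparison A2m, a plasma protein that binds PDGF (-3.57 ± 0.47), Nrp1, a coreceptor (-2.84 ± 0.49), and the convertase Pcsk5 (-2.62 ± 0.41) fell. The list's median change was 0.92 against the libraries labelled KO MSC and -0.03 against WT MSCs, beside 0.04 and -0.06 over all genes.

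Of the 22 adaptors and effectors that bind the receptors or act after them, 3 passed against the libraries labelled KO MSC and 10 against WT MSCs, beside those same 4.98% and 21.3% of all genes. Fyn, a kinase of the Src family, rose by 2.68 ± 0.53 against the libraries labelled KO MSC, and the transcription factors Stat5a (-2.74 ± 0.61) and Stat5b (-2.48 ± 0.53) fell. Against WT MSCs 2 rose and 8 fell, with Stat5a at -4.10 ± 0.48, Stat5b at -3.43 ± 0.44, the docking protein Gab1 at -2.14 ± 0.35 and the regulatory kinase subunit Pik3r1 at -1.96 ± 0.36. The list's median was 0.14 and -0.15, and that of the brakes 0.32 and -0.06. Of the 12 brakes on the receptors or their signalling, Spry1, a Sprouty protein that dampens signalling, fell against the libraries labelled KO MSC (-1.96 ± 0.46) and WT MSCs (-2.99 ± 0.49). Spry4 (-1.78 ± 0.42) and the ubiquitin ligase Cblb (-1.32 ± 0.41) fell against WT MSCs. The Spry1 call against the libraries labelled KO MSC was lost without any 1 of them (limma adjusted p = 0.0671 to 0.123) and without tumor 2, 3, 5 or 6. The Spry4 call was lost without WT_MSC 2 (0.0683) or 3 (0.0573). The Cblb groups overlapped, and its call was lost without any 1 WT MSC library (0.0899 to 0.139) and with quantile scaling (0.0606). No brake passed as higher, although 8 of 12 had higher means against the libraries labelled KO MSC and 5 against WT MSCs.

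Of 12 early response genes that PDGF induces in fibroblasts, none passed as higher in tumors, although 5 had higher means against the libraries labelled KO MSC and 3 against WT MSCs. The chemokine gene Ccl2 was at 2.11 ± 1.05 and 2.05 ± 0.97 and the transcription factor gene Fosl1 at 2.04 ± 1.38 and 2.13 ± 1.41 against KO and WT MSCs, both named after their values were seen. Fosb fell by 2.47 ± 0.56 against the libraries labelled KO MSC, and Fos (-3.95 ± 0.61), Egr1 (-2.75 ± 0.83), Fosb (-2.21 ± 0.43) and Junb (-1.83 ± 0.55) fell against WT MSCs. Without KO_MSC 1 the Fosb call against the libraries labelled KO MSC was lost (limma adjusted p = 0.119). The same held without tumor 1, 4, 5 or 6 (0.0513 to 0.0569). The MSCs were sorted and no sort is described for the tumors, so the sort and the tissue cannot be told apart for these genes. The groups overlapped for Egr1 and Junb. The Egr1 call was lost without any 1 WT MSC library (limma adjusted p = 0.0778 to 0.153) and the Junb call without WT_MSC 1 (0.180) or 3 (0.0850). The list's median was -0.50 and -0.65. Of 7 genes of the related class III receptors and their ligands, the receptor Csf1r rose (4.40 ± 0.91 and 4.37 ± 0.94 against KO and WT MSCs), and the ligands Kitl (-3.17 ± 0.65 and -4.26 ± 0.61) and Il34 (-3.95 ± 0.85 and -3.96 ± 0.94) fell in both comparisons. Kit fell against WT MSCs (-2.99 ± 0.33), as did the ligand Csf1 (-2.37 ± 0.64). The Csf1 call was lost without any 1 WT MSC library (limma adjusted p = 0.0658 to 0.0997). Il34 lost its call against the libraries labelled KO MSC without any 1 of them (0.0541 to 0.121). Kitl and Csf1r lost theirs there without KO_MSC 1 (0.115 and 0.152) or KO_MSC 2 (0.0872 and 0.0523). Against WT MSCs, the Il34 (0.0904) and Csf1r (0.0607) calls were lost without WT_MSC 1. No gene of the 5 lists passed in the libraries labelled KO MSC against WT MSCs, and the median changes there were -0.93, -0.60, -0.66, -0.55 and -0.02 for the lists in the order given, beside -0.01 over all genes. Without the library labelled KO_MSC 1, 0 of the 9 calls against KO MSCs were kept, and without 1 library between 14 and 26 of the 27 calls against WT MSCs were kept. In the second batch alone 2 of the 9 and 9 of the 27 were kept. Csf1r also stands in the macrophage list and Kitl in the LepR+ stromal list.

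**Figure D5:**
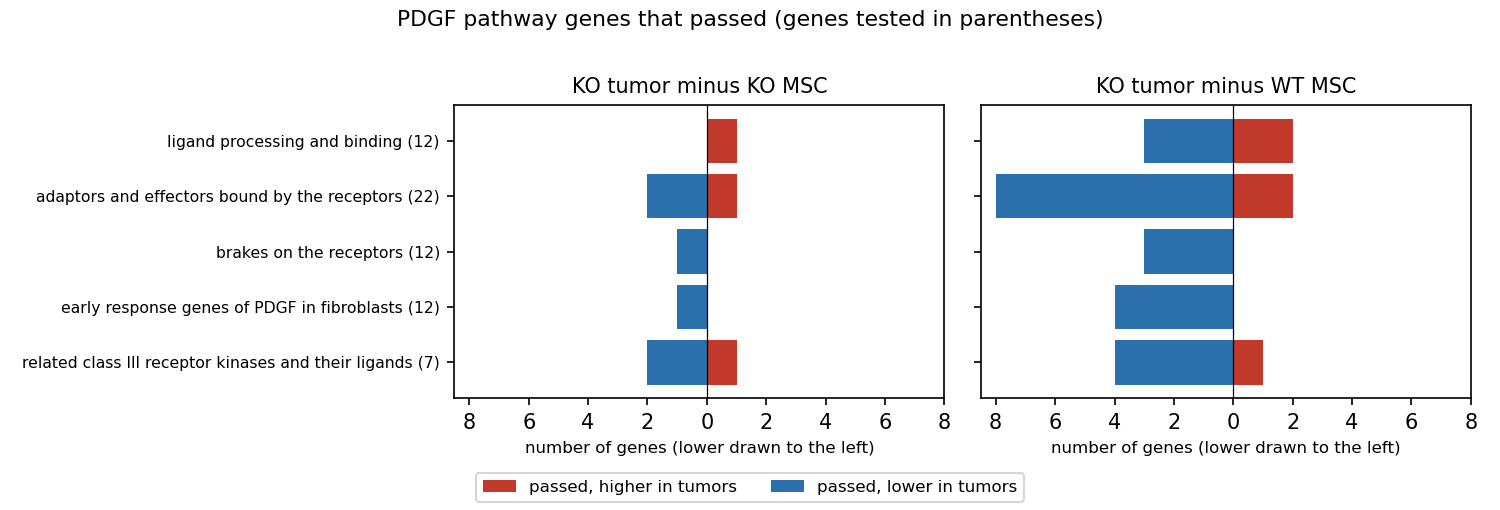
Number of genes that passed (adjusted p under 0.05) higher or lower in each of the 5 pathway lists, for tumors against libraries labelled KO MSC and tumors against WT MSCs. Falls outnumber rises against WT MSCs in every list, with 8 falls among the 22 adaptors and effectors.

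Markers of other cell types differed between tumors and MSCs. The MSCs were gated without CD45 and CD31 and with LepR and CD140a, and no sort is described for the tumors. The gate and the tissue therefore cannot be told apart for the macrophage, endothelial and LepR+ stromal markers. Of 10 macrophage markers, 10 rose in tumors against both MSC groups. Their summed level (log2 of the sum) was 15.10 to 18.33 in tumors, 8.58 to 10.10 in the libraries labelled KO MSC and 8.35 to 10.06 in WT MSCs, where the macrophage receptor gene Fcgr1 was at the floor in all 3 libraries. Of 10 endothelial markers 5 rose against the libraries labelled KO MSC and 8 against WT MSCs, with summed levels of 10.80 to 12.77 in tumors, 9.51 to 9.90 in the libraries labelled KO MSC and 9.18 to 9.50 in WT MSCs. Pf4, a platelet and macrophage gene, was the 1 of 8 megakaryocyte and platelet markers that rose, at 8.89 to 14.96 in tumors, 4.75 to 6.48 in the libraries labelled KO MSC and 5.73 to 7.24 in WT MSCs, while the platelet integrin Itga2b was at 5.05 to 6.59 in tumors, 5.40 to 6.41 in the libraries labelled KO MSC and 5.55 to 8.08 in WT MSCs. Mural markers, those of pericytes, had 2 rising genes of 9 against the libraries labelled KO MSC, and 4 rising and 2 falling against WT MSCs, with summed levels of 10.06 to 14.12 in tumors, 10.09 to 10.68 in the libraries labelled KO MSC and 11.19 to 11.84 in WT MSCs. The highest tumor sum rests mostly on Des, which reached 13.93, while every other mural marker stayed at or below the 9.76 of Cspg4 in tumors. Fibroblast markers had 1 and 2 rising genes of 10, and no skeletal muscle or osteoblast marker passed. All 7 muscle markers nevertheless had higher means in tumors, with a summed level of 8.48 to 19.59 and a median of 11.06 in tumors, 8.20 to 9.23 in the libraries labelled KO MSC and 7.97 to 9.15 in WT MSCs. The muscle actin gene Acta1 reached 19.28 and the creatine kinase gene Ckm 16.30 in the highest tumor. Osteoblast markers summed to 15.85 to 20.12 in tumors, 14.39 to 17.97 in the libraries labelled KO MSC and 15.56 to 17.91 in WT MSCs. Of 10 LepR+ stromal markers, 9 fell against the libraries labelled KO MSC and 10 against WT MSCs, and of 8 erythroid markers 6 fell against each. The erythroid markers summed to 8.78 to 12.65 in tumors, 13.29 to 16.10 in the libraries labelled KO MSC and 12.13 to 15.22 in WT MSCs, although the MSCs were sorted without Ter119, an erythroid antigen. The part of these cell types in the members' values was not tested.

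The genes whose level followed a member most closely over the 12 libraries were found by the smallest root mean square difference after centring, among 9131 genes with a mean of at least 7. For Pdgfrb they were Podnl1, Nid2 and Adamts2, with differences of 0.58, 0.61 and 0.64 beside its own spread of 2.17. For Pdgfra they were Elmo2, Osmr and Asph (0.44, 0.44 and 0.45, spread 1.14). For Pdgfc they were Mpeg1, Fyn and Nxn (0.50, 0.52 and 0.55, spread 1.78), of which Mpeg1 is a macrophage gene and Fyn stands in the adaptor list. For Pdgfb they were Prkch, Sh3pxd2b and Stx8 (0.40, 0.48 and 0.49, spread 1.30), for Pdgfa Rapgef1, N6amt1 and Amotl1 (0.43, 0.45 and 0.45, spread 1.13) and for Pdgfd Cdh2, Slc35e3 and Ggcx (0.39, 0.43 and 0.44, spread 1.02). Likeness over 12 libraries in 3 groups mostly follows the group means, and it has no test here.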

How the data were processed

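The table analysed holds log2 values that the authors deposited as variance-stabilized and batch-adjusted, per the file title. The authors' other deposited table is a score, 100 times the stabilized value divided by 1 factor per library (100% of values within 0.51), and served as an alternative and as the filter. TopHat2 2.0.13, Cufflinks 2.2.1, Cuffdiff and mm10 are named, per the submitters' processing notes, and no other step is named in the sources used here. Neither table holds reads, so depth is unknown and no count test or counting interval was possible. RNA was copied with SMART-Seq v4 and sequenced from libraries that do not mark strand, per the labels' protocols.

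Limma 3.58.1 (R 4.3.3; lmFit, eBayes with trend, two-sided, no covariates) was run per comparison on its 2 groups, with Benjamini-Hochberg adjustment over the 18948 genes that varied and a threshold of 0.05. Receptor differences were tested by exact permutation (scipy 1.17.1). The fits were tested on simulated data. The labels do not tell separate animals from repeat libraries, so the p-values may reflect technical spread only, and fits without a batch term ignore the authors' batch adjustment. Batches were read from shared floor values. The floors of the 2 batches lay evenly around 4.75 in 100% of the 8352 genes with a floor in both. The first-batch floors of Pdgfb and Pdgfc, at which no library stood, were inferred from this. All 6 members and, per pathway list, up to 4 passing genes with the smallest adjusted p were named. Members, lists and motifs were chosen with earlier results of these data known. Alternatives were scaling, filter, prior, weights, batch, replicate block and leaving out each library, and taking back the batch shift was added after seeing the data. Values of some single marker genes are not reported here.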

Additional observations from a re-analysis of the deposited data

How the results depend on the processing

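Of 341 values of single members under alternatives, 299 kept their direction and their side of the threshold, 26 lost a call and 8 gained one. The 8 that changed sign were small: Pdgfra in tumors against the libraries labelled KO MSC was 0.031 with the replicate block; Pdgfb in the libraries labelled KO MSC against WT MSCs was 0.28 with quantile scaling, 0.048 with upper-quartile scaling, 0.32 without KO_MSC 1, 0.10 without WT_MSC 2 and 0.10 without WT_MSC 3 (-0.38 to 0.32 over the libraries left out); Pdgfc there was -0.25 without KO_MSC 2 and -0.07 without WT_MSC 3 (-0.25 to 0.34). Against the libraries labelled KO MSC, 2 members and 944 genes passed. Members numbered 1 with no filter, quantile scaling, a batch term or batch 2 alone, 4 with library weights and 0 with the replicate block. Pdgfb there kept its call in 8 of 20 alternatives, and under the block its adjusted p was 0.222. Genes numbered 1481 with quantile scaling (520 higher and 961 lower, against 512 and 432), 4821 with library weights, 1923 with all 3 groups in 1 fit, 229 in batch 2 alone and 34 with the block. Against WT MSCs, 5 members and 4033 genes passed; members numbered 2 in batch 2 alone and 2 with the block, and genes 6821 with weights, 775 in batch 2 alone and 1445 with the block. In the libraries labelled KO MSC against WT MSCs, 0 passed, and 2447 genes and 2 members with weights. The weights gave a convergence warning in both comparisons with the libraries labelled KO MSC. Leaving out 1 library gave 113 to 1627 genes and 0 to 3 members against the libraries labelled KO MSC, 1856 to 4737 genes and 3 to 6 members against WT MSCs, and 0 for the MSC groups. Upper-quartile scaling moved the median of all genes by 0.10 in both comparisons with WT MSCs. Correlations of same-numbered libraries, on deviations from the group means, ran from -0.32 to 0.24 with mixed signs. The labels name no animals and the groups are small, so such correlations cannot settle whether replicate numbers pair the libraries. The libraries also did not all follow their own number best. No MSC library is numbered 4 to 6, so in the tumor comparisons the block used only tumors 1 to 3. These are all of the first batch, set against MSCs of both batches. Calls lost and signs changed under the block are therefore not read as weaker effects. Taking back the batch shift left 2, 5 and 0 members. The causes were not tested. Depth is unknown, and members near the floor (Pdgfb and Pdgfc in MSCs) have understated changes.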
